A study of Sorghum bicolor with 12 samples.

Results

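The drought response of the tolerant sorghum genotype IS22330 was examined by comparing 3 drought-stressed (DS) with 3 well-watered (WW) libraries of leaf meristem RNA. The transcripts described are those with a group mean of at least 1 RPKM (reads mapped to a transcript, relative to its length and to the library total) in DS or WW plants of IS22330, which held for 18231 of 27989 transcripts. The plants grew singly in pots. DS plants were held for 9 days at 0.2 FTSW, the fraction of the transpirable soil water that was left in the pot. WW plants were watered daily with the aim of keeping them close to 0.7 FTSW. For the WW plants of IS22330 the study lists a value above this aim. All were harvested 42 days after emergence. The same design was applied to the sensitive genotype IS20351, and each of the 4 groups had 3 biological replicates. The comparison thus rests on 1 tolerant line. The sources used here do not say how many plants went into a library, so the p-values measure the spread between libraries.

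A plant that runs short of water closes its stomata, so that less carbon dioxide enters the leaf while the light it absorbs stays the same. The antenna proteins collect this light for photosystems I and II, which drive electrons to ferredoxin, and the Calvin cycle uses the products to fix carbon. Light energy that cannot be used forms reactive oxygen, which ascorbate peroxidases and thiol proteins remove. Drought is also known to alter wax on the leaf surface, membrane lipids, lignin, flavonoids, and the use of starch and sucrose as reserves.

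The deposited values are group means, from which the reads of each library could be solved as whole numbers for all but 2 transcripts. The letters a to c order the libraries of a group by total, because their replicate numbers could not be recovered, and they pair no WW plant with a DS plant. Unique reads on transcripts ranged from 27352783 to 28294742 in the WW and from 27421482 to 27493510 in the DS libraries. The transcripts left out, Sb01g013000.1 and Sb10g021330.1, had authors' mean values of 14830 and 6886 RPKM in WW and of 22257 and 3132 RPKM in DS plants. Antenna and RuBisCO transcripts were abundant in WW libraries (642 to 1293 RPKM for the RuBisCO small chain), as the leaf label would have it. Genes that mark a meristem carry no names in the tables used here, so that part of the label was not checked.

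Library c of the DS plants lay with the WW libraries. Across 19024 transcripts, Spearman's rho of log2 values was 0.965 between DS libraries a and b, but 0.854 between DS a and c and 0.871 between DS b and c. The same DS library c reached 0.926, 0.918 and 0.930 with WW libraries a, b and c. WW library b was nearer to DS libraries a and b, at 0.923 and 0.937, than WW a (0.837 and 0.866) or WW c (0.891 and 0.913) were. Within its own group WW library b reached 0.892 with WW a and 0.941 with WW c. These coefficients describe pairs of libraries across transcripts, which are not independent replicates. Among the 17996 tested members, DS library c was at least 4-fold above both other DS libraries for 801 transcripts and at least 4-fold below both for 701. The matching counts were 93 and 78 for DS a, 36 and 98 for DS b, 160 and 285 for WW a, 130 and 385 for WW b, and 27 and 31 for WW c. The values of the separate libraries are therefore given for most transcripts named. The labels give no batch or date for these libraries, and what sets DS library c and WW library b apart was not tested.

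**Figure D1:**
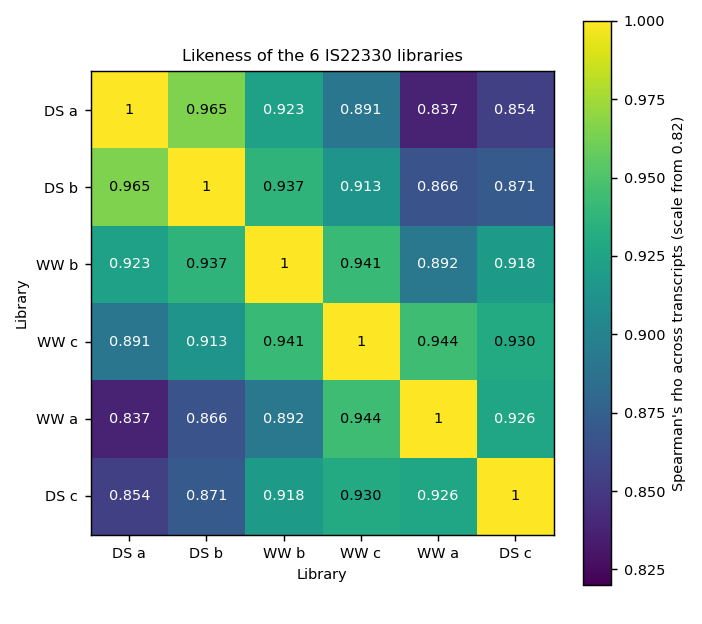
Spearman's rho of log2(TMM-scaled RPKM + 0.1) across 19024 transcripts for each pair of the 6 IS22330 libraries, with both axes listing libraries and the colour scale starting at 0.82. DS a and b are most alike (0.965), and DS c is nearer to every WW library (0.918 to 0.930) than to DS a (0.854) or DS b (0.871).

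The edgeR quasi-likelihood test, fitted to all 12 libraries, called 0 of 19024 transcripts (0%) at an adjusted p under 0.05, and 0 past the stricter thresholds of 0.001 for the adjusted p and 2 for the size of the log2 ratio. An unadjusted p under 0.05 was found for 1038 transcripts with higher and 1058 with lower values in DS plants. At an adjusted p under 0.05 limma gave 0 higher and 1 lower, and DESeq2 gave 98 higher and 99 lower, of which 0 met the study's thresholds by either tool. The smallest adjusted p by edgeR was 0.0631, for Sb01g006320.1.

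Transcripts whose 3 DS libraries all lay beyond the 3 WW libraries were counted on RPKM scaled with the TMM factors of edgeR, which correct for the make-up of each library. The DS libraries lay above the WW libraries for 1409 tested transcripts (7.41%) and below them for 1529 (8.04%). On unscaled RPKM these counts were 938 and 1737, so that the share lying above among the separated transcripts moved from 48.0 to 35.1%. The scaling factors of DS libraries b and c, 1.12 and 0.860, were the extremes of the genotype. Of the separated transcripts, 246 of the higher and 548 of the lower ones differed by at least 2-fold. DS libraries a and b together lay above the WW libraries for 4274 transcripts (22.5%) and below for 4397 (23.1%). Asking this of 2 libraries instead of 3 can only raise the counts. The pair a and c gave 1964 above and 2156 below, and the pair b and c gave 1756 and 1870. DS library c by itself lay above the WW libraries for 5122 transcripts (26.9%) and below for 5417 (28.5%). The counts for 1 library were 6276 and 6048 in DS library a and 5576 and 5610 in DS library b.

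The 10 transcripts with higher and the 10 with lower DS values that had the smallest unadjusted p in edgeR were separated in every library, DS library c included. None of the 20 has a name in the tables used here. Their log2 ratios ran from 0.89 to 4.65 in the higher and from -2.30 to -1.04 in the lower ones. By edgeR the adjusted p was 0.386 in each except Sb01g006320.1. By DESeq2 it was under 0.05 in all 20, from 1.49e-14 (Sb01g006320.1) to 0.024 (Sb08g006895.1). The 20 were picked by p on these same libraries, so their separation and DESeq2 values are not independent evidence.

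Transcript Sb01g006320.1 was at 79.2, 57.9 and 71.1 RPKM in WW libraries a, b and c and at 21.4, 26.5 and 16.6 RPKM in the DS libraries. The groups did not overlap, and DS library c was the lowest of all, with a log2 ratio of -1.68 (SE 0.20, edgeR adjusted p 0.0631). Transcript Sb04g037640.1 was at 176, 124 and 145 RPKM in WW and at 56.3, 55.8 and 56.0 RPKM in DS libraries, a log2 ratio of -1.36 (SE 0.28). The DS values of Sb04g037640.1 were nearly equal, so the spread lay in the WW plants. Transcript Sb07g005510.1 was at 126, 117 and 139 RPKM in WW and at 44.7, 50.3 and 42.5 RPKM in DS libraries, a log2 ratio of -1.44 (SE 0.30). Transcript Sb04g025740.1 was at 29.4, 28.2 and 31.1 RPKM in WW and 14.6, 14.7 and 12.9 RPKM in DS libraries.

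Among the higher ones, Sb02g039420.1 was nearly flat within each group, at 1.68, 1.70 and 1.70 RPKM in WW and 3.86, 4.03 and 3.77 RPKM in DS libraries, a log2 ratio of 1.23 (SE 0.24). Transcript Sb01g008777.1 was at 9.25, 7.83 and 6.54 RPKM in WW and at 17.1, 20.3 and 19.2 RPKM in DS libraries. In these 2 transcripts library c was as high as its group. In Sb05g026280.1 it was not, since 276, 311 and 79.3 RPKM were found in the DS libraries against 60.5, 62.6 and 57.7 in the WW libraries. The log2 ratio of Sb05g026280.1 was 1.85 (SE 0.36) with all libraries and 2.21 without DS library c. Transcript Sb08g006895.1, the member with the highest ratio among the 20, was near the limit of detection in WW plants at 0.101, 0 and 0.0974 RPKM and stood at 3.11, 1.40 and 1.20 RPKM in DS plants.

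**Figure D2:**
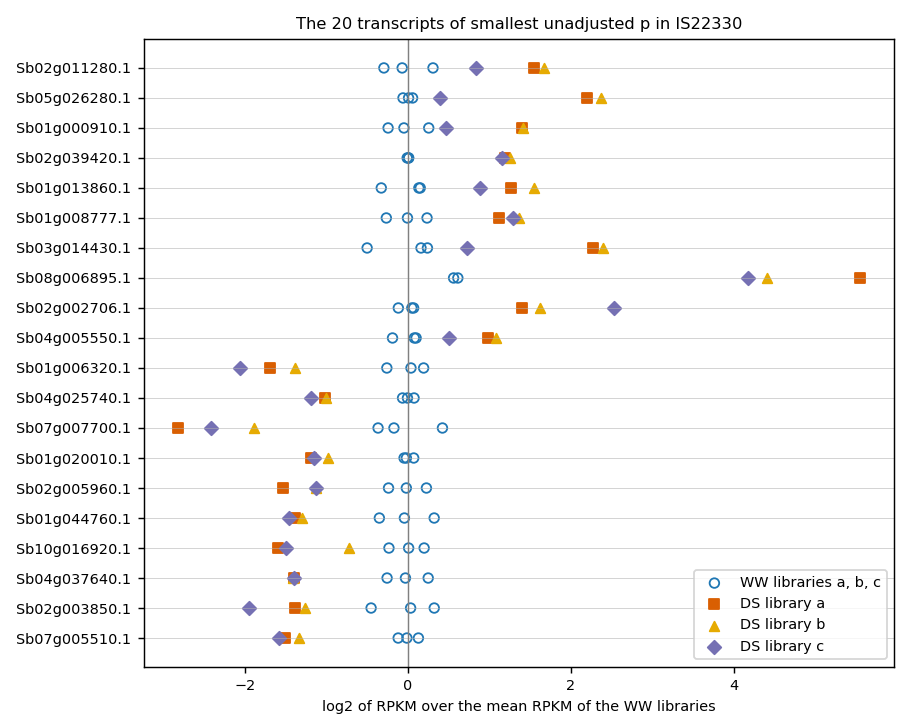
RPKM of the 20 transcripts of smallest unadjusted p in each IS22330 library, as log2 of the ratio to the mean of the WW libraries (x axis), 1 transcript per row; open circles are WW libraries and filled marks DS libraries a, b and c. The DS marks lie beyond the WW circles in each row, and the library of 0 RPKM (WW b of Sb08g006895.1) is not drawn. The transcripts were picked by p on these same libraries.

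Size alone, on the deposited means, gave 252 transcripts at least 4-fold higher (1.38% of members) and 264 at least 4-fold lower (1.45%) in DS plants. DS and WW libraries did not overlap for 33 of the 224 tested higher transcripts (14.7%), beside 7.41% of all tested transcripts. They did not overlap for 62 of the 205 tested lower ones (30.2%), beside 8.04%. These transcripts were picked by size on the same values, so the shares are not independent evidence. A single library exceeded the next highest by at least 4-fold in 64 of the higher and 94 of the lower transcripts. When WW library a was left out, 111 of the 264 lower transcripts were still 4-fold lower. When DS library a was left out, 132 of the 252 higher ones were still 4-fold higher. Leaving out DS library c had less effect on these transcripts, of which 240 and 241 were kept, but it raised the totals to 447 higher and 731 lower. The means thus hide which libraries carried a difference, and the lower count leaned on WW library a more than on any other.

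**Figure D3:**
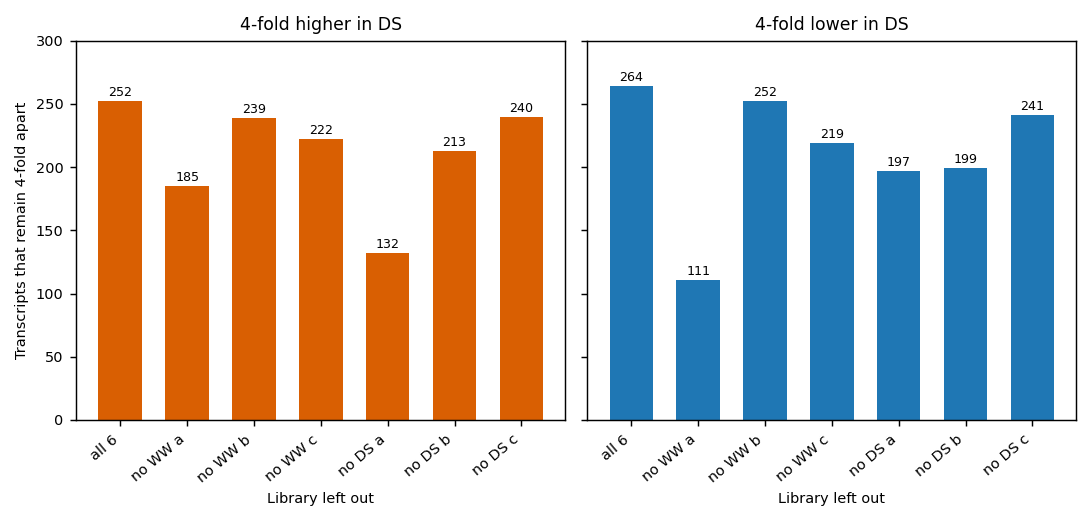
Number of the 252 transcripts 4-fold higher (left) and the 264 transcripts 4-fold lower (right) in the mean RPKM of DS plants that remained at least 4-fold apart when each library was left out (x axis). The smallest bars are 132 without DS library a on the left and 111 without WW library a on the right.

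Differences of 4-fold were most frequent among transcripts of low level. They made up 4.73% of the 5492 members whose higher group mean was from 1 to 5 RPKM, 2.35% of 6079 members from 5 to 20 RPKM, 1.43% of 4973 members from 20 to 100 RPKM and 2.49% of 1687 members at 100 RPKM or more. The members at 100 RPKM or more had a median SD of log2 values of 0.337 among WW and 0.532 among DS libraries. The DS median exceeded the WW median at each of these levels, and DS library c entered it. Reads in DS plants alone were found for 7 members and reads in WW plants alone for 3. Of these 10, Sb06g029525.1 had the highest mean, with 6.95, 8.96 and 0 RPKM in DS libraries. Transcripts Sb02g025563.1 and Sb04g023310.1 were read in each WW library, at 0.726 to 1.45 and 0.803 to 3.32 RPKM, and in no DS library.

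Names were at hand for 174 transcripts of 6 pathways, of which 133 were members and, by a partly different set, 133 were tested. Because the study chose them on these samples, their direction is not independent evidence. Of the 133 tested, 0 passed an adjusted p under 0.05 in edgeR, 58 had positive and 74 negative log2 ratios and the median was -0.25, against 0.01 over all tested transcripts. DS libraries a and b lay together above the WW libraries for 34 (25.6%) and below them for 54 (40.6%), against 22.5% and 23.1% of all tested transcripts. Of these, library c joined the others in 4 of the 34 and 1 of the 54. Over all tested transcripts, library c joined them in 1409 of the 4274 above and 1529 of the 4397 below. Gene names are matches to rice, maize or Arabidopsis. Forms of a gene that differ only in the last digit of the identifier share sequence, so the split of reads between them is uncertain.

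**Figure D4:**
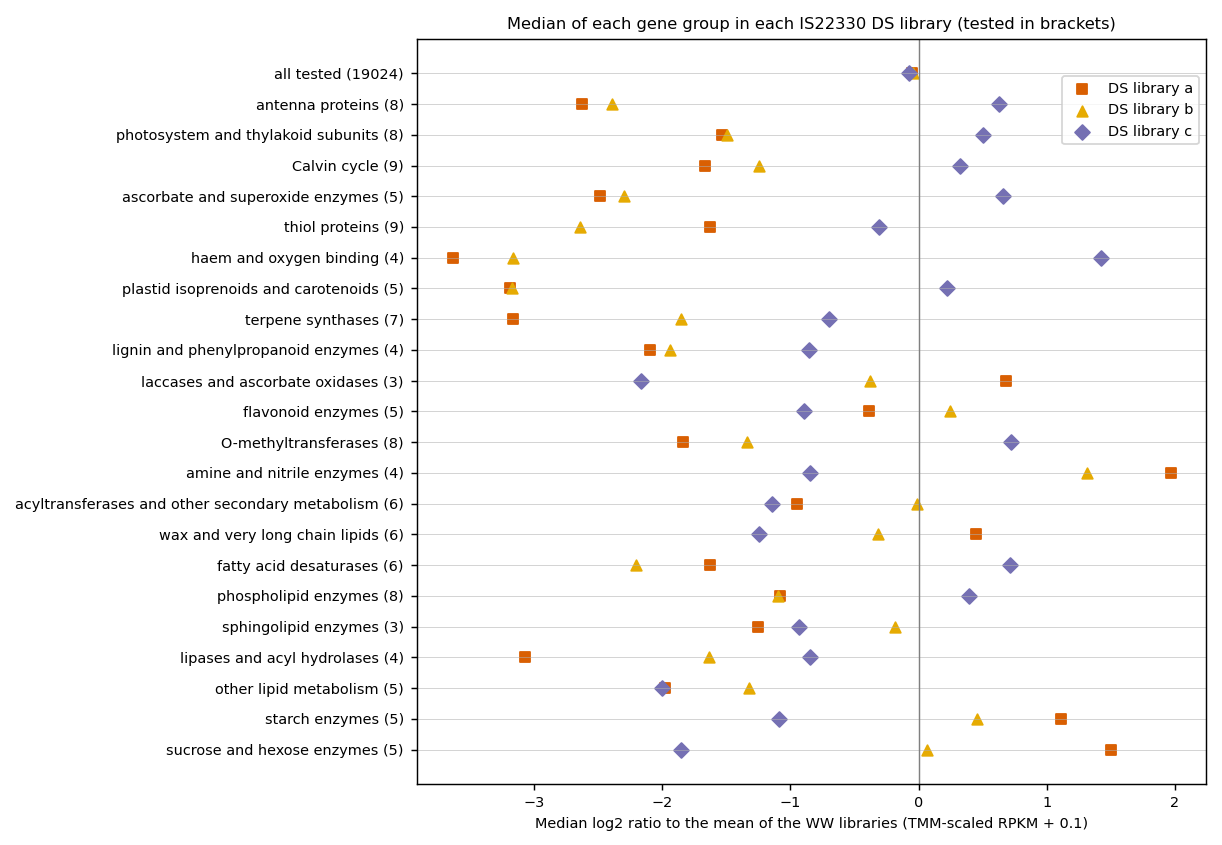
Median log2 ratio of each gene group to the mean of the WW libraries (x axis, on log2 of TMM-scaled RPKM + 0.1), by DS library, for groups with at least 3 tested transcripts (number in brackets). Over all 19024 tested transcripts the 3 medians lie near 0, whereas antenna proteins stand at -2.63 and -2.39 in a and b and at 0.62 in c.

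Transcripts of the light-harvesting antenna were lower in DS libraries a and b than in any WW library and were not lower in DS library c. This held for 7 of the 8 antenna transcripts. Of all tested transcripts, 23.1% lay below the WW libraries in both DS libraries a and b. The antenna medians against the WW mean were -2.63, -2.39 and 0.62 on the log2 scale in DS libraries a, b and c. Light harvesting complex PSII subunit 5 (Sb05g007070.1) was at 1542, 729 and 1473 RPKM in WW and at 184, 272 and 2145 RPKM in DS libraries. Light harvesting complex PSII subunit 6 (Sb06g032690.1) was at 1670, 1287 and 3005 RPKM in WW and at 259, 275 and 2305 RPKM in DS libraries. The antenna protein CP29 (Sb02g036260.1), which links the outer antenna to photosystem II, was at 909, 556 and 987 RPKM in WW and at 177, 233 and 891 RPKM in DS libraries. In all 3 the stressed libraries a and b were at the bottom and c stood among or above the WW plants. Chlorophyll a-b binding protein 2 (Sb03g027030.1) varied most, with 20.1, 1.18 and 9.31 RPKM in WW and 0.162, 0.406 and 57.5 RPKM in DS libraries. The antenna transcript of lowest log2 ratio, Sb02g037410.2, had a value of -1.38 (SE 1.00, edgeR adjusted p 0.604) and stood near the limit of detection, at 1.24, 0.46 and 0.946 RPKM in WW and 0.0527, 0.0527 and 0.789 RPKM in DS libraries.

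Subunits of the photosystems fell into a lower and a higher set. The photosystem II 11 kD protein (Sb01g036240.1), a lumenal subunit, was even in WW plants at 849, 825 and 822 RPKM and at 93.6, 114 and 1357 RPKM in DS libraries. Photosystem I subunit P (Sb02g032815.1) was at 164, 154 and 118 RPKM in WW and at 33.8, 44.1 and 240 RPKM in DS libraries. Photosystem I subunit O (Sb06g016090.1) was at 867, 493 and 905 RPKM in WW and at 255, 327 and 905 RPKM in DS libraries. These 3, with PsbP-like protein 1 and the thylakoid membrane phosphoprotein of 14 kDa, were the 5 of 8 whose DS libraries a and b lay below the WW range. The other 3 lay above it in a and b. Over all tested transcripts the shares were 23.1% below and 22.5% above. PSBR, photosystem II subunit R (Sb02g002830.1), was at 3.09, 51.0 and 12.6 RPKM in WW and at 426, 407 and 1.41 RPKM in DS libraries. Its log2 ratio of 3.55 (SE 1.67, edgeR adjusted p 0.456) was the highest of the light reactions. The photosystem II calcium ion binding protein Sb04g026720.1 behaved alike at a low level, with 1.20, 0.870 and 1.74 RPKM in WW and 6.18, 10.1 and 0.199 RPKM in DS libraries.

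The electron carriers split in the same manner. Ferredoxin-6 (Sb03g040610.1) was at 0.587, 1.42 and 0.710 RPKM in WW and at 17.9, 9.80 and 0.365 RPKM in DS libraries. The ferredoxin-NADP reductase-binding protein (Sb02g035610.1), tied to the last step of electron transfer, was at 1220, 571 and 740 RPKM in WW and at 138, 129 and 2066 RPKM in DS libraries. Of the 18 light-reaction transcripts tested, DS libraries a and b lay together below the WW libraries for 13 and above for 4, beside 23.1% and 22.5% of all tested transcripts. Library c joined them in 0 cases and lay above all WW libraries in 11, or in 8 without TMM scaling. Over all 19024 tested transcripts, library c lay above all WW libraries in 5122 (26.9%), or in 3190 without TMM scaling. With DS library c left out, 11 of the 18 were lower and 2 higher at an adjusted p under 0.05 by edgeR, beside 3.01% and 1.18% of all tested transcripts. These calls were lost when the same libraries were fitted without IS20351, which gave 0 calls in edgeR, with 1871 higher and 2786 lower at an unadjusted p under 0.05.

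Calvin cycle transcripts followed. The RuBisCO small chain (Sb05g003480.1), part of the enzyme that fixes carbon dioxide, was at 1293, 642 and 1016 RPKM in WW and at 179, 182 and 1450 RPKM in DS libraries. Fructose-bisphosphate aldolase (Sb05g004590.1) was at 727, 148 and 461 RPKM in WW and at 29.0, 51.4 and 1332 RPKM in DS libraries. Both were lower in DS libraries a and b and highest of all 6 in DS library c. CP12-2 (Sb01g037510.1), a small protein that binds 2 Calvin cycle enzymes in the dark, went the other way, with 19.5, 90.4 and 42.1 RPKM in WW and 181, 146 and 7.71 RPKM in DS libraries. The RuBisCO activator (Sb05g027880.1) was at 0.0415, 13.9 and 5.76 RPKM in WW and at 41.5, 33.9 and 0.0413 RPKM in DS libraries, with a log2 ratio of 1.86 (SE 1.91, edgeR adjusted p 0.720). Glyceraldehyde-3-phosphate dehydrogenase (Sb06g018880.3) had the lowest ratio of the list, -0.98 (SE 0.75, edgeR adjusted p 0.622), and stood at 59.2, 21.3 and 49.0 RPKM in WW and 12.6, 9.86 and 37.2 RPKM in DS libraries. The 9 transcripts of this list, as the study drew it, include a putative chitinase (Sb01g021920.1) and another dehydrogenase form (Sb06g018880.6). Over these 9 the median log2 ratio was 0.31 with all libraries and -1.87 without DS library c.

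**Figure D5:**
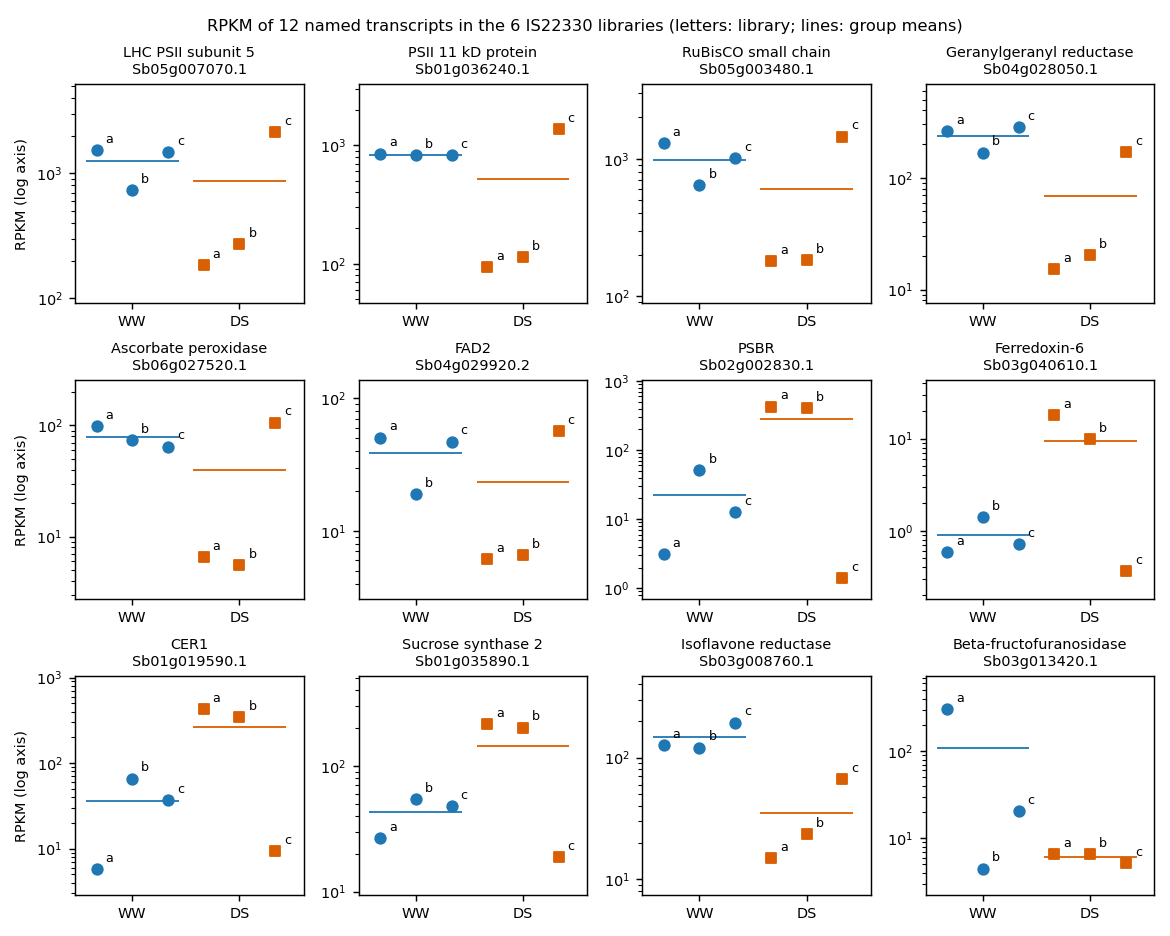
RPKM (y axis, log scale) of 12 named transcripts in the WW (circles) and DS (squares) libraries a, b and c of IS22330, with lines at the group means. DS c stands apart from DS a and b in 10 of the panels, isoflavone reductase is lower in each DS library, and the WW mean of beta-fructofuranosidase rests on WW a at 301 RPKM.

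Of the 18 tested antioxidant transcripts, DS libraries a and b lay together below the WW range for 11 and above it for 4, beside 23.1% and 22.5% of all tested transcripts. Ascorbate peroxidase (Sb06g027520.1), an enzyme that uses ascorbate against hydrogen peroxide, was at 98.2, 74.4 and 64.5 RPKM in WW and at 6.56, 5.52 and 106 RPKM in DS libraries. Peroxiredoxin-5 (Sb04g006270.1), a thiol peroxidase, was at 101, 59.6 and 58.5 RPKM in WW and at 5.20, 6.86 and 114 RPKM in DS libraries. Superoxide dismutase (Sb10g002970.1), which turns superoxide into hydrogen peroxide, was at 23.2, 12.3 and 15.9 RPKM in WW and at 2.93, 3.77 and 29.6 RPKM in DS libraries. All 3 were several-fold lower in a and b, and DS library c was at the top. A thioredoxin family protein (Sb06g023440.1) ran against them, at 20.7, 28.9 and 30.8 RPKM in WW and 85.6, 88.5 and 8.48 RPKM in DS libraries. Thioredoxin peroxidase (Sb02g040650.1) and a glutaredoxin (Sb08g017090.1) had the highest and lowest log2 ratios of the 18 antioxidant transcripts, 4.01 (SE 1.79) and -3.04 (SE 1.56), with edgeR adjusted p values of 0.449 and 0.485. The first was at 0, 0.601 and 0.133 RPKM in WW and 10.8, 1.48 and 0 RPKM in DS libraries, and its ratio became 1.42 without DS library a. The second was at 1.61, 27 and 13.1 RPKM in WW and 0, 0 and 4.46 RPKM in DS libraries, so that its DS reads came from library c alone. Dehydroascorbate reductase 2 (Sb09g001690.1), an enzyme of ascorbate recycling, was the 1 antioxidant transcript separated in every library, at 0.364, 2.33 and 0.791 RPKM in WW and 6.21, 4.39 and 4.75 RPKM in DS libraries.

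In the plastid route from isoprenoid precursors to carotenoids and the phytyl chain of chlorophyll, 5 transcripts were tested. Each lay below the WW libraries in DS libraries a and b, beside 23.1% of all tested transcripts. Geranylgeranyl reductase (Sb04g028050.1), an enzyme for the phytyl chain of chlorophyll, was at 262, 168 and 285 RPKM in WW and at 15.2, 20.4 and 169 RPKM in DS libraries. Geranylgeranyl pyrophosphate synthetase 1 (Sb02g037510.1), which makes the common precursor, was at 76.4, 38.5 and 65.4 RPKM in WW and at 6.4, 12.3 and 40.7 RPKM in DS libraries. Lycopene epsilon cyclase (Sb03g026020.1), which leads towards lutein, was at 35.3, 18.6 and 21.2 RPKM in WW and at 3.31, 4.89 and 24.8 RPKM in DS libraries. In this route DS library c lay within or near the WW range rather than far above it. The earlier enzyme 1-deoxy-D-xylulose-5-phosphate synthase (Sb02g005380.1 and Sb02g005410.1) did not reach the level needed for the test. It was at 12.7 and 4.52 RPKM in WW library a and at 0.935 RPKM or less in each other library.

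Among terpene synthases, which make volatile and defence terpenes, 7 transcripts were tested. Of those with a group mean of at least 1 RPKM, 3 had their highest value by far in WW library a. Terpene synthase 14 (Sb04g001810.1) was at 151, 4.60 and 21 RPKM in WW libraries a, b and c and at 3.12, 5.99 and 22.9 RPKM in DS libraries. Terpene synthase 6 was at 32.9, 1.39 and 5.36 RPKM in WW and 1.35, 5.51 and 0.744 RPKM in DS libraries as Sb07g002990.1. The other terpene synthase 6, Sb07g005130.1, was at 35.5, 0.194 and 0.431 RPKM in WW and at 0.667, 3.04 and 0.199 RPKM in DS libraries. It had the lowest log2 ratio of secondary metabolism at -3.29 (SE 1.65, edgeR adjusted p 0.482), which became 1.99 without WW library a. WW library a was the highest of the 6 libraries in each of these 3, and the other libraries overlapped between treatments. Terpene synthase 10 as Sb07g004485.1 differed from them, at 18, 4.08 and 12.1 RPKM in WW and 1.16, 3.55 and 13.6 RPKM in DS libraries, with a and b below the WW range. The other terpene synthase 10, Sb07g004470.1, was at 26.4, 2.05 and 11.7 RPKM in WW and 0.658, 2.37 and 6.92 RPKM in DS libraries, and its log2 ratio of -1.87 became -0.87 without WW library a. Terpene synthase 21 (Sb09g000980.1), under 1 RPKM throughout, was at 0.709, 0.0858 and 0 RPKM in WW and 0.0442, 0 and 0.176 RPKM in DS libraries. Its log2 ratio of -1.68 (SE 1.46) became 0.80 without WW library a.

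Several other transcripts of secondary metabolism had high values in a single WW library. Cinnamoyl-CoA reductase CCR1, the entry to the lignin branch, was at 42.3, 2.27 and 8.15 RPKM in WW and 3.47, 5.79 and 2.25 RPKM in DS libraries as Sb04g005510.1. Tyrosine/DOPA decarboxylase 1 (Sb09g025140.1) was at 12.3, 0.0446 and 1.02 RPKM in WW and at 0.161 RPKM or less in DS libraries, and mannitol dehydrogenase (Sb02g024190.1) was at 9.56, 0.261 and 0.469 RPKM in WW and at 0.429 RPKM or less in DS libraries. Chalcone synthase 7 (Sb05g020220.1), which opens the flavonoid pathway, was at 3.24, 0.236 and 0.236 RPKM in WW and at 0.146, 0.340 and 0.0727 RPKM in DS libraries. Laccases 17 and 2 (Sb03g039520.1 and Sb03g039570.1), which couple lignin units, were at 2.92 and 3.46 RPKM in WW library c and at 0.452 RPKM or less in every other IS22330 library. In each of these enzymes a single WW library held most of the WW signal.

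Of the 4 tested lignin and phenylpropanoid transcripts, CCR1 as Sb04g005510.1 had this pattern and the other 3 did not. Cinnamyl alcohol dehydrogenase 9 (Sb07g006090.1) was at 8.79, 11.3 and 10.3 RPKM in WW and 17.8, 29.7 and 7.9 RPKM in DS libraries, and caffeoyl-CoA 3-O-methyltransferase (Sb07g028520.1) was at 5.68, 6.31 and 2.7 RPKM in WW and 1.14, 1.14 and 4.01 RPKM in DS libraries. The first was higher and the second lower in DS libraries a and b. The other CCR1, Sb10g005700.1, was at 1.91, 0.0922 and 2.42 RPKM in WW and 0.238, 0.19 and 0.355 RPKM in DS libraries, low in WW library b as well. Of the 5 tested flavonoid enzymes, DS libraries a and b lay together above the WW range for 1 and below it for 2. Over all tested transcripts the shares were 22.5% and 23.1%. Leucoanthocyanidin reductase (Sb06g029520.1) was the higher one, at 0.486, 3.6 and 0.783 RPKM in WW and 25, 22.2 and 0.725 RPKM in DS libraries. Its log2 ratio was 3.21 (SE 1.02, edgeR adjusted p 0.400). Isoflavone reductase (Sb03g008760.1), a flavonoid enzyme, was at 126, 121 and 194 RPKM in WW and at 14.9, 23.4 and 66.9 RPKM in DS libraries. It did not overlap between the groups, with a log2 ratio of -1.94 (SE 0.59, edgeR adjusted p 0.400). The O-methyltransferase ZRP4 (Sb03g005860.1) did not overlap in the other direction, at 5.08, 3.6 and 6.29 RPKM in WW and 7.85, 15.5 and 9.55 RPKM in DS libraries. The nitrilase NIT4, which breaks down cyanide products in plants, was at 88.6, 188 and 151 RPKM in WW and at 523, 372 and 114 RPKM in DS libraries as Sb04g026950.1. The other NIT4 transcript Sb04g026940.1 was at 11.4, 24.0 and 15.6 RPKM in WW and at 70.6, 50.9 and 13.5 RPKM in DS libraries. Both nitrilases were higher in DS libraries a and b, with c among the WW libraries. A copper ion binding protein (Sb08g011530.1) had the highest ratio of secondary metabolism, 3.40 (SE 1.56, edgeR adjusted p 0.454), from 0.0381, 0.755 and 0.147 RPKM in WW and 6.78, 3.72 and 0 RPKM in DS libraries.

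Wax synthesis was marked by single members of high level. CER1 (Sb01g019590.1), which forms the alkanes of leaf wax in Arabidopsis, was at 5.79, 65.7 and 36.7 RPKM in WW and at 430, 344 and 9.42 RPKM in DS libraries. The ketoacyl-CoA synthetase KCS11 (Sb09g029260.1), which lengthens fatty acids, had the highest log2 ratio of the lipid list, 3.52 (SE 1.70, edgeR adjusted p 0.467). It was at 0.359, 3.03 and 0.602 RPKM in WW and at 36.6, 10.9 and 0.113 RPKM in DS libraries. The fatty acyl-CoA reductase FAR1 (Sb07g024290.1), which makes wax alcohols, was at 7.12, 3.31 and 4.89 RPKM in WW and at 0.109, 1.16 and 5.15 RPKM in DS libraries. The wax genes therefore did not share a direction, since CER1 (Sb01g019590.1) and KCS11 were higher and FAR1 lower in DS libraries a and b. Another CER1 transcript, Sb06g022320.1, was not tested. It was at 2.35, 0.464 and 0.416 RPKM in WW and at 0, 0.0329 and 0.395 RPKM in DS libraries. A further CER1 transcript, Sb04g026320.1, lay within the WW range in each DS library. Only 6 of the 10 wax transcripts were tested, and their median log2 ratio was 0.01.

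Fatty acid desaturases, which set the fluidity of membranes, were also divided. Desaturase FAD2 (Sb04g029920.2) was at 50.6, 19.0 and 47.2 RPKM in WW and at 6.14, 6.53 and 57.0 RPKM in DS libraries, and the plastid enzyme FAD6 (Sb07g021640.1) was at 194, 134 and 122 RPKM in WW and 56.8, 50.9 and 255 RPKM in DS libraries. The acyl-acyl-carrier-protein desaturase Sb06g012520.1, which introduces the first double bond, was higher at 316, 372 and 141 RPKM in DS than at 101, 159 and 127 RPKM in WW libraries, and its groups overlapped only without TMM scaling. Phospholipase D alpha 1 (Sb08g022520.1), which releases phosphatidic acid, was at 0.267, 0.542 and 0.0516 RPKM in WW and at 2.60, 1.83 and 0.319 RPKM in DS libraries. Ceramidase (Sb03g028410.1), which splits sphingolipids, was at 2.64, 6.53 and 4.61 RPKM in WW and at 15.3, 14 and 2.02 RPKM in DS libraries. Acyl-CoA oxidase ACX2 (Sb05g023970.1), the first enzyme of beta-oxidation, was at 0.791, 1.11 and 0.450 RPKM in WW and at 3.22, 3.62 and 0.216 RPKM in DS libraries. These 3 breakdown enzymes were higher in DS libraries a and b. Phospholipase D alpha 2 (Sb02g024910.1) and the glycerophosphodiester phosphodiesterases Sb06g019730.1 and Sb07g026000.1 lay below the WW range in both. Breakdown enzymes thus did not share a direction. The sulfolipid synthase SQD2 (Sb03g006480.1) was at 47.3, 5.44 and 4.28 RPKM in WW and at 2.61, 3.10 and 85.9 RPKM in DS libraries. A class 3 lipase (Sb09g001420.1) had the lowest ratio, -3.14 (SE 1.45, edgeR adjusted p 0.454), from 0, 0.774 and 0.562 RPKM in WW and 0, 0.0965 and 0.0482 RPKM in DS libraries. Of the 34 lipid transcripts tested, DS libraries a and b lay together above the WW range for 8 and below it for 10, near the background of all tested transcripts on both sides.

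In carbon metabolism, sucrose synthase 2 (Sb01g035890.1), which splits sucrose for use in the cell, was at 26.8, 54.0 and 48.1 RPKM in WW and at 214, 201 and 18.9 RPKM in DS libraries. Its log2 ratio of 1.70 (SE 0.63, edgeR adjusted p 0.416) was the highest of the 10 tested transcripts. Alpha-amylase AMY3 (Sb03g032830.1), which degrades starch, was higher in each DS library, at 2.60, 3.32 and 3.55 RPKM in WW and 6.89, 6.17 and 12.8 RPKM in DS libraries. DS library c was here the highest of all, and the log2 ratio was 1.54 (SE 0.43, edgeR adjusted p 0.386). The starch branching enzyme (Sb04g021540.1) was at 1.11, 1.87 and 1.28 RPKM in WW and at 5.96, 4.90 and 0.525 RPKM in DS libraries. Beta-fructofuranosidase (Sb03g013420.1), an invertase that cleaves sucrose, had the lowest ratio of the 133 tested transcripts, -4.11 (SE 1.14, edgeR adjusted p 0.386). Its WW libraries held 301, 4.49 and 20.4 RPKM and its DS libraries 6.60, 6.58 and 5.21 RPKM, so that the difference came from WW library a and shrank to -0.95 without it. A beta amylase (Sb02g035600.1) was likewise highest in WW library a, at 112, 14 and 72.3 RPKM in WW and 2.68, 12.8 and 17.1 RPKM in DS libraries. The other beta amylase, Sb01g019850.1, was at 1.04, 164 and 50.4 RPKM in WW and 435, 111 and 22.6 RPKM in DS libraries. Its log2 ratio was 1.37 (SE 1.65). Among tested cell wall invertases, Sb06g031930.1 lay above and Sb03g047060.1 below the WW range in DS libraries a and b. The median log2 ratio of the carbon list was 0.75, with 8 positive and 2 negative values.

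When DS library c was left out, 225 transcripts were higher and 573 lower in the 2 remaining DS libraries at an adjusted p under 0.05 by edgeR, of which 0 met the study's thresholds. Leaving it out was chosen with its values known, so these calls describe DS libraries a and b and do not stand for the group. Among the 225 higher transcripts, DS library c lay above the WW range in 32%, within it in 36.4% and below it in 31.6%. Among the 573 lower ones, it lay below the WW range in 21.6%, within it in 35.3% and above it in 43.1%. Over all tested transcripts it lay above the WW range in 26.9% and below it in 28.5%. The median of DS library c against the WW mean was -0.06 on the log2 scale over the 225 and 0.20 over the 573. The median of library c was thus near the WW level for transcripts that set DS libraries a and b apart. At least 4-fold in size were 72 of the higher and 194 of the lower ones.

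Some of the transcripts with the smallest p without DS library c are given next. Transcript Sb02g031170.1 was at 23.2, 84.4 and 117 RPKM in WW and at 2665, 4580 and 3.54 RPKM in DS libraries. Transcript Sb09g015030.1 was at 0, 0 and 0.0653 RPKM in WW and at 21.3, 17.4 and 0 RPKM in DS libraries. Transcript Sb05g001550.1 was the mirror image, with 12.7, 12.6 and 10.5 RPKM in WW and 0.0450, 0.270 and 28.4 RPKM in DS libraries. In each of them DS libraries a and b lay far from the WW plants, while c was on the WW side or past it. Transcript Sb04g023540.1, at 157, 116 and 141 RPKM in WW and 44.0, 46.4 and 94.3 RPKM in DS libraries, was an exception in which c lay between its group and the WW plants. The neighbours by number Sb06g013960.1 and Sb06g013980.1 were both higher in DS libraries a and b. The first was at 48.3, 38.3 and 7.15 RPKM in DS libraries against 9.37, 12.7 and 9.42 in WW libraries.

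Whether the response of IS22330 differed from that of the sensitive genotype was tested as an interaction in the same edgeR fit. At an adjusted p under 0.05 it called 0 of 19024 transcripts, with 612 higher and 519 lower at an unadjusted p under 0.05, where limma called 0 and DESeq2 29 and 18. By edgeR or limma, none of the differences described here is therefore shown to be particular to IS22330. The DESeq2 calls were not set against the transcripts described. For the RuBisCO small chain the IS22330 response was -0.52 (SE 0.81) and for PSBR 3.55 (SE 1.67) on the log2 scale, each with a wide error. Less the IS20351 response, the edgeR values were 1.75 (SE 1.15) and -0.77 (SE 2.15).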

How the data were processed

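RNA of the leaf meristem was sequenced in 12 sorghum libraries, and the 6 of IS22330 are described. The authors aligned cleaned reads with SOAP2, allowing 5 mismatches, to the Ensembl release 20 sorghum genome and counted unique matches per transcript. They deposited, per group, the mean read count (an expected count, since it is a mean over 3 libraries) and the mean RPKM, with no fold changes. Both means together, with library totals found from transcripts read in a single library, gave the whole reads of each library. The edgeR 4.0.16 two-sided quasi-likelihood tests (R 4.3.3, common biological coefficient of variation 0.464) were fitted on these reads for 19024 transcripts with at least 1 RPKM in 3 libraries, over all 12 libraries, with TMM scaling, a prior count of 0.125 and Benjamini-Hochberg adjustment. P-values were also computed with limma 3.58.1 on log2(RPKM + 0.1) and DESeq2 1.42.0. A log2 ratio is the edgeR estimate of DS over WW. The unsolved transcripts held 3.41% of IS22330 WW reads. The code was tested on simulated data. Other settings were another scaling, filter, prior count or pseudocount, the IS22330 libraries alone, and each library left out.

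Named transcripts were the 10 of smallest p in each direction with and without DS library c, and the highest and lowest log2 ratio of each study list. Further transcripts of the study lists were described by function and were chosen after their values were seen. Members and lists were chosen with earlier results of these data known. The planned choice from pattern-based lists could not be made, because the tables used here pair no product names with the other identifiers.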

Additional observations from a re-analysis of the deposited data

Results flagged for a closer look

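The O-methyltransferase ZRP4 (Sb03g005860.1) was separated in opposite directions in the 2 genotypes, a difference that did not pass correction. All 3 DS libraries of IS22330 lay above its WW libraries, with means of 11 ± 3.99 and 4.99 ± 1.35 RPKM (SD, n = 3), while all 3 DS libraries of IS20351 lay below, at 1.57 ± 0.629 against 7.54 ± 2.33 RPKM (SD, n = 3). The log2 response of IS22330 exceeded that of IS20351 by 3.49 (SE 0.58). The unadjusted p of this interaction in edgeR was 8.25e-05 and the adjusted p was 0.407, so it did not pass the correction over 19024 transcripts. Among the 19024 tested transcripts, such opposite separation was found for 30 with IS22330 above and for 29 the other way. Of the other tested transcripts named ZRP4, Sb10g027360.1 and Sb08g005125.1 lay below the WW range in DS libraries a and b of IS22330. Sb10g029620.1 did so in DS library a alone. The transcript was described with its values known.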

How the results depend on the processing

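The count at an adjusted p under 0.05, 0 by edgeR, was 1 by limma and 197 by DESeq2, with a range of 0 to 798 over fits lacking 1 library, the 798 being without DS library c. Settings added after seeing the data, which left out DS library c, gave 593 by limma and 2534 by DESeq2, of which 284 met the study's thresholds, and 0 with the IS22330 libraries alone. The interaction gave 47 by DESeq2, also added later. Transcripts with DS above WW numbered 938 without scaling and from 1756 to 4274 when 1 library was left out (2829 without WW library b), and those below from 1870 to 4397 (3026 without WW library b). Transcripts 4-fold higher numbered 115 with a pseudocount of 1, 138 at a mean of 5 RPKM or more and 150 to 447 with 1 library left out. Those 4-fold lower numbered 84, 118 and 158 to 731. Leaving out a library can only raise the counts of transcripts with DS above or below WW. Otherwise the cause of these shifts was not tested.

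The log2 ratio of Sb07g005130.1 became 1.99 without WW library a (range with 1 library left out -4.71 to 1.99). That of Sb05g001550.1 became 0.49 without DS library a and 0.48 without DS library b (range -6.32 to 0.49). That of Sb01g036240.1 became 0.028 and 0.0148 (range -3.08 to 0.03). Of 560 values for 56 named transcripts, 488 kept their direction and side of the threshold, 67 passed it only in the alternative and 5 reversed. No paired analysis was possible because the deposited columns are group means that carry no replicate numbers. With 3 libraries a group, of which DS library c stood apart, small differences could not be resolved, and transcripts under 1 RPKM rest on few reads.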
